A study of Mus musculus with 5 samples.

Results

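Promoters of intermediate CpG methylation were taken as the promoters listed in all 5 libraries of a mouse bisulfite sequencing study whose mean CpG methylation over those libraries was at least 5% and under 30%. They numbered 4316 of the 20388 promoters listed in all 5 libraries, or 21.2%. Of the remaining promoters, 11442 had a mean under 5% and 4630 a mean of 30% or more. Because the methylation levels themselves chose these promoters, their levels and differences are given as a description, with no test.

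The assay was reduced representation bisulfite sequencing, in which the enzyme MspI cuts at CCGG, short fragments are kept, and bisulfite turns unmethylated cytosine into uracil so that sequencing reads methylation. All 5 libraries came from the C57BL6 mouse strain, with 1 library in each group. pESC-PGCLC and ESC-PGCLC were primordial germ cell-like cells induced in culture from pESC and from female ESC, through 46 h as epiblast-like cells and 4 days of germ cell-like culture, then sorted for CD61 together with SSEA1. PGC were primordial germ cells drawn with SSEA1 magnetic beads from fetal gonads of stage E12.5, and their sex is not stated in the labels. pESC were parthenogenetic embryonic stem cells, which derive from an egg without a sperm genome. Female ESC were an embryonic stem cell line described as female, with nothing further on its origin. Both stem cell lines were kept on feeder cells in serum medium with LIF, and before induction they were passed in a medium with inhibitors and a reduced dose of PD0325901. How many lines or clones, embryos or cultures stand behind each library is not stated in the labels.

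Each value was the deposited methylation level of a promoter, printed here as percent. No read counts were used with it, so depth and counting error are unknown, and with 1 library in each group no difference has a replicate check. The libraries listed between 20652 CpG promoters, in female ESC, and 21575, in ESC-PGCLC, and the female ESC library also listed the fewest CpG regions over all classes together, 157458 against 166516 to 168945 in the other 4. A region's level is an average over DNA molecules, so a few heavily methylated cells or alleles and many lightly methylated ones cannot be told apart. The parthenogenetic label was set beside CpG islands of imprinted genes that are methylated on the maternal chromosome. The Airn island, for example, stood at 62.1% in pESC-PGCLC, 1.03% in ESC-PGCLC, 52.1% in PGC, 61.2% in pESC and 2.01% in female ESC. The islands of Kcnq1ot1, Zrsr1, Nap1l5 and Peg10 were likewise higher in both parthenogenetic libraries. Over these islands pESC stood at 39.1% (Peg10) to 67.7% (Kcnq1ot1), short of full methylation. PGC, which are not labelled parthenogenetic, stood nearly as high, at 33.1% (Peg10) to 61.7% (Kcnq1ot1). The contrast rests on low levels in the female ESC line, so it does not settle the label. An embryonic stem cell with a genome from each parent would carry methylation on 1 of its parental copies there, so the levels near 0 in female ESC and ESC-PGCLC go against an intact imprint at Airn. Germ cells of this fetal stage are known for low methylation at imprinted regions, and the PGC library at 52.1% goes against that as well.

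CpG methylation at a promoter is the addition of a methyl group to cytosine followed by guanine, and dense methylation there usually goes with a silent gene. Most mammalian promoters with a CpG island are kept unmethylated, while promoters poor in CpG are often methylated, and the flanks of islands, called shores, lie in between. Primordial germ cells lose most of their DNA methylation as they migrate to and settle in the gonad, and imprinted regions, which carry methylation from only 1 parent, are erased there as well. Germ cell-like cells made in culture pass through part of that loss.

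The deposited promoters carry Ensembl gene IDs that the reference tables used here do not pair with symbols. A place in the genome was found for 184 of the 4316 intermediate promoters, by the method of taking the CpG island or shore whose 5 CpG levels were all equal to those of the promoter. Of these 184, 26 shared their levels with a CpG island and 158 with a shore, on 20 chromosomes, and 10 lay on the X chromosome. The low promoters located the same way, with a mean under 5%, numbered 586, of which 409 shared their levels with an island. The high promoters, with a mean of 30% or more, numbered 148, of which 6 did. The CHG levels also were all equal at 144 of the 184 and the CHH levels at 151. The method was chosen after values had been seen, and it selects promoters that lie within 1 island or shore.

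In 23 of the located intermediate promoters the 300 bases around a RefSeq gene start, 250 before it and 50 after, lay inside the matched island or shore. These windows held a median of 9 CpGs, with quartiles of 6 and 13. The windows of 179 low promoters held a median of 26 CpGs (quartiles 16 and 33), and those of 18 high promoters a median of 6 (quartiles 5.25 and 8.75). All 32851 mouse start windows in the RefSeq table had a median of 7 CpGs (quartiles 3 and 20). The intermediate windows thus lay between the low and the high ones in CpG count, as a description of the few that could be placed.

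The start windows of 4 intermediate promoters show this spacing of CpGs. Among intermediate promoters with 1 start window inside the matched region, they had the widest ranges over the 5 libraries. The ranges were 19.5 points at Trpc5, 13.8 at Matn4, 12.4 at Tmem215 and 12.3 at Gm26515, so their library orders are not typical examples. The windows are from RefSeq, build GRCm38.p6, read from 5′ to 3′ on the strand of the gene with every CpG in capitals.
Trpc5, chrX:144688131-144688430, minus strand: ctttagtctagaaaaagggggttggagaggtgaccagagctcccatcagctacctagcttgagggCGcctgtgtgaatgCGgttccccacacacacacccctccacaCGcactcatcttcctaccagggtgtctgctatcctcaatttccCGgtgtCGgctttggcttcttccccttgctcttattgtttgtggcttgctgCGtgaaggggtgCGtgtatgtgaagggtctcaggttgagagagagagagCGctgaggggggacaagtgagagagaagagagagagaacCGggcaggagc
Matn4, chr2:164405111-164405410, minus strand: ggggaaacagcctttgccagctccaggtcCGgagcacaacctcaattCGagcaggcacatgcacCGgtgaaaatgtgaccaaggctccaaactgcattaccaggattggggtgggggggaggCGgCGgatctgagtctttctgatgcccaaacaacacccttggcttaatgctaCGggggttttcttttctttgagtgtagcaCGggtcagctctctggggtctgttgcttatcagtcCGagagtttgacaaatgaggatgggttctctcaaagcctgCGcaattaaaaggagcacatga
Tmem215, chr4:40471930-40472229, plus strand: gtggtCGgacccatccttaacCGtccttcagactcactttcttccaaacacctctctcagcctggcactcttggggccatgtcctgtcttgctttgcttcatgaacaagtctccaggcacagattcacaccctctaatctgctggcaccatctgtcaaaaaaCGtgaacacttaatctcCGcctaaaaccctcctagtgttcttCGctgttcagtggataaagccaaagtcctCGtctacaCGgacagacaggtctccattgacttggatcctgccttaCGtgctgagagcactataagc
Gm26515, chr5:110779643-110779942, plus strand: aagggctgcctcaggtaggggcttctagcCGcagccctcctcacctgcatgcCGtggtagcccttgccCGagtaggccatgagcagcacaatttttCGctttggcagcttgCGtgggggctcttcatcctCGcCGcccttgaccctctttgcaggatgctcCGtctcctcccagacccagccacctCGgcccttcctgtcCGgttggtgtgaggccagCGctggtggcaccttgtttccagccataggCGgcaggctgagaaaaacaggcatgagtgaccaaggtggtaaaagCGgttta

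Trpc5 encodes a cation channel of the plasma membrane, and its start lies in a shore on the X chromosome, 144686866 to 144688866, that also overlaps Rtl4, a gene derived from a retrotransposon. As no ID is paired with a symbol, here and below the promoter entry may belong to another gene at the same shore. The window held 9 CpGs, 2 of them inside the MspI site CCGG. The promoter entry stood at 18.5% in pESC-PGCLC, 22.5% in ESC-PGCLC, 16.2% in PGC, 30.6% in pESC and 35.7% in female ESC, so all 3 germ cell libraries were under both stem cell libraries.

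Matn4 encodes matrilin 4, a protein of the extracellular matrix, and its shore spans 164404951 to 164406952 on chromosome 2. Its window also held 9 CpGs and 2 CCGG sites. The levels were 23.6% in pESC-PGCLC, 28.1% in ESC-PGCLC, 23.2% in PGC, 36.4% in pESC and 36.9% in female ESC, the same order of cell classes at a mean just under the upper bound.

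Tmem215 encodes a transmembrane protein, and its window on chromosome 4 held 8 CpGs and 0 CCGG sites. Its promoter entry had 18.98% in pESC-PGCLC, 15.0% in ESC-PGCLC, 17.7% in PGC, 20.5% in pESC and 27.4% in female ESC. The window of Gm26515, a gene model on chromosome 5, held 13 CpGs and 1 CCGG site, and its shore also overlaps Pus1, which encodes a pseudouridine synthase. Its levels were 17.6% in pESC-PGCLC, 13.1% in ESC-PGCLC, 25.4% in PGC, 14.1% in pESC and 22.7% in female ESC. Here PGC were highest, and the 2 germ cell-like libraries did not lie on 1 side of the stem cell libraries.

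Over all 4316 intermediate promoters the 5 libraries lay close together. The mean level was 13.3% in pESC-PGCLC, 13.8% in ESC-PGCLC, 12.9% in PGC, 14.8% in pESC and 15.7% in female ESC. At the median promoter the level was 11.5% in pESC-PGCLC, 11.6% in ESC-PGCLC, 11.4% in PGC and 12.7% in both pESC and female ESC. The libraries therefore differed more in their upper part than in the middle: the 95th percentile was 26.5% in pESC-PGCLC, 28.2% in ESC-PGCLC, 25.6% in PGC, 30.3% in pESC and 34.9% in female ESC. The 5th percentile ran the other way for female ESC, at 3.82% against 4.56% to 4.80% in the other 4. The spread over promoters was widest in female ESC (SD 10.1 points) and narrowest in PGC (SD 6.92 points), with 7.20 in pESC-PGCLC, 7.83 in ESC-PGCLC and 8.51 in pESC.

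**Figure D1:**
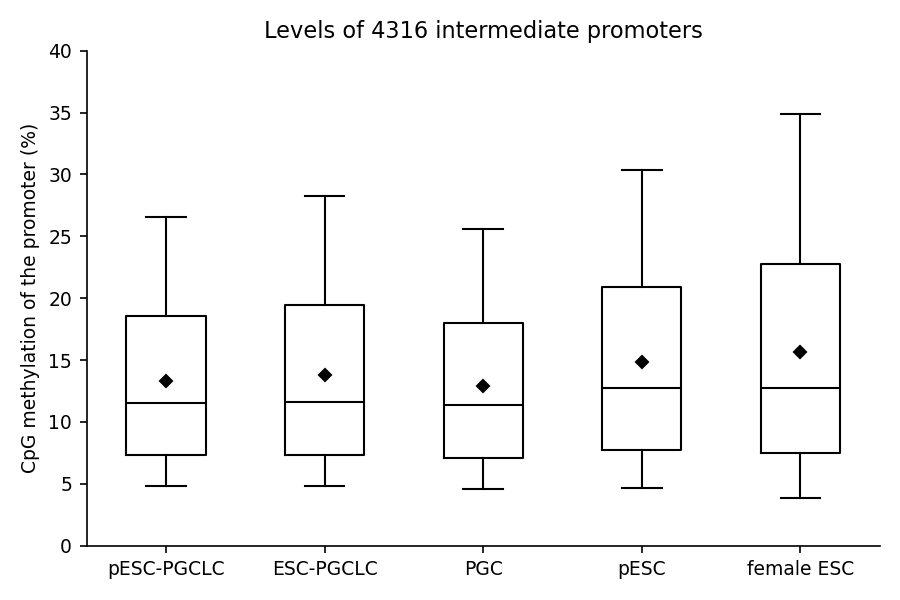
CpG methylation in percent of the 4316 intermediate promoters in each library. Boxes span the quartiles with the median as a line, whiskers run from the 5th to the 95th percentile and diamonds mark the mean; the medians lie between 11.4% and 12.7%, while the upper whisker is highest in female ESC at 34.9% and lowest in PGC at 25.6%.

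High levels within the set were concentrated in the stem cell libraries. A level of 30% or more was reached by 51 promoters in pESC-PGCLC, 117 in ESC-PGCLC, 44 in PGC, 240 in pESC and 500 in female ESC. A level under 5% was found at 272 promoters in pESC-PGCLC, 264 in ESC-PGCLC, 349 in PGC, 291 in pESC and 384 in female ESC. Female ESC thus held the most promoters at both ends. At least 50% methylation was reached by 9 promoters in female ESC and 2 in pESC, and by 0 in the 3 germ cell libraries. These counts were made within the set alone, with no share over all promoters beside them.

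The range from the lowest to the highest of a promoter's 5 levels had a median of 5.997 points, with quartiles of 3.62 and 9.78, against a median of 2.03 points over all promoters. It reached 5 points at 2582 promoters (59.8%), against 36.0% of all promoters. It reached 10 points at 1044 promoters (24.2%), 25 points at 90 (2.09%) and 40 points at 21 (0.487%). Over all 20388 promoters these last 3 shares were 22.9%, 2.07% and 0.338%, so ranges of 10 and 25 points were about as common as among promoters in general. Relative to the promoter's own mean, the median range was 47.8% for intermediate promoters and 41.4% for all promoters.

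In 2744 of the 4316 promoters (63.6%) all 5 levels lay within the bounds of 5% and 30%, 942 (21.8%) fell under 5% in some library and 662 (15.3%) reached 30% in some library. Both happened at 32 promoters. The 5 promoters just inside the lower bound had means of 5.0002% to 5.0073% and levels of 0% to 9.57%, and the 5 just under it had means of 4.9971% to 4.9988% and levels of 2.40% to 8.26%. At the upper bound, the 5 just inside had levels of 20.4% to 43.8% and the 5 just outside 24.5% to 37.2%. Promoters on either side of a bound were alike, as the bounds divide a continuous range.

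The library that stood highest or lowest was not spread evenly. Female ESC held the highest level at 1872 promoters (43.4%) and pESC at 1162 (26.9%), against 396 (9.18%) for pESC-PGCLC, 409 (9.48%) for ESC-PGCLC and 471 (10.9%) for PGC. The lowest level was in PGC at 1618 promoters (37.5%), in pESC-PGCLC at 852 (19.7%), in ESC-PGCLC at 603 (13.97%), in female ESC at 669 (15.5%) and in pESC at 550 (12.7%). PGC were lowest at 39.0% of all promoters, close to their share in the set, but at 26.6% of promoters with a mean under 5% and 70.8% of those at 30% or more. The other shares of highest and lowest were not counted over all promoters, so they are not read as particular to the set. All 3 germ cell libraries lay under both stem cell libraries at 1457 promoters, 33.8% of the set and 23.1% of all promoters. They lay above both at 311 promoters, 7.21% of the set and 10.2% of all promoters. The full order of the library means, with female ESC highest, then pESC, ESC-PGCLC, pESC-PGCLC and PGC lowest, was followed by 345 single promoters (7.99%), close to the 7.76% of all promoters. It was followed by 0.865% of promoters with a mean under 5% and 24.6% of those at 30% or more.

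The mean levels of the libraries lay further apart, in percent of each other, at the more methylated promoters of the set in several comparisons. Intermediate promoters with a mean of 5 to 10% numbered 1746, and those with 25 to 30% numbered 543. The mean level in PGC was 95.8% of that in female ESC at promoters of 5 to 10%, then 87.9% at 10 to 15%, 82.1% at 15 to 20%, 78.2% at 20 to 25% and 73.1% at 25 to 30%. Beyond the set it was 72.6% at promoters of 30 to 40% and came back to 83.1% at 60% and above. The lowest relative level of PGC thus sat around the upper bound of the set.

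The germ cell-like libraries followed shallower courses. ESC-PGCLC had 95.8% of the female ESC mean at promoters of 5 to 10% and 82.9% at 25 to 30%. pESC-PGCLC had 93.1% of the pESC mean at 5 to 10%, 87.1% at 20 to 25% and 88.1% at 25 to 30%. Promoter by promoter, the median difference relative to the mean of the pair, with its sign, was also lower at 25 to 30% than at 5 to 10%. It went from −10.9% to −32.4% for PGC against female ESC and from −6.84% to −19.3% for ESC-PGCLC against female ESC. For pESC-PGCLC against pESC it went from −9.18% to −13.1%, and for pESC against female ESC from 0.05% to −14.3%. The median size of the relative difference, whatever its direction, had no such course in most comparisons. It was 30.8% at 5 to 10% and 34.2% at 25 to 30% for PGC against female ESC. The 2 values were 22.5% and 21.2% for ESC-PGCLC against female ESC, 23.8% and 16.1% for pESC-PGCLC against pESC, and 23.1% and 19.2% for pESC against female ESC. Between the stem cell lines the direction of the mean changed within the set: pESC had 102.8% of the female ESC mean at 5 to 10%, 97.9% at 10 to 15% and 87.7% at 25 to 30%. Of these 4 courses, 3 share the female ESC library, which listed the fewest regions and had the widest spread, and its part in them was not tested.

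**Figure D2:**
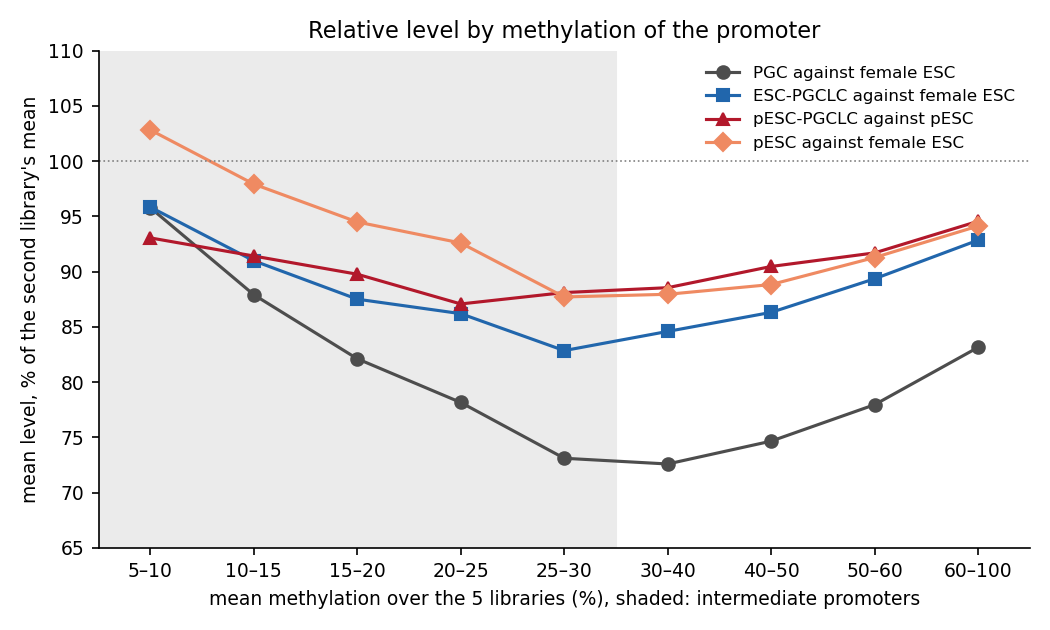
Mean level of 1 library as a percent of the mean of the library it is set against, for promoters grouped by their mean methylation over the 5 libraries; the shaded bins hold the intermediate promoters. PGC against female ESC runs from 95.8% at promoters of 5 to 10% to 73.1% at 25 to 30%, and pESC against female ESC from 102.8% to 87.7%.

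Comparisons between 2 libraries were read at 2 bars, 25 and 10 percentage points, the lower one because a mean under 30% leaves little room for the higher. The libraries also differ in their overall level, so each split of higher and lower promoters is given as well after scaling the libraries to 1 mean over all promoters, wherever that moved the share of higher ones by over 10 percentage points. Differences are of the first library minus the second.

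pESC differed little from female ESC at most intermediate promoters, with single large exceptions in both directions. The median difference was −0.69 points (quartiles −3.55 and 1.66), and the mean level in pESC was 94.5% of that in female ESC. pESC were higher at 41.4% of the promoters and lower at 58.5%, and after scaling higher at 52.7%. By at least 25 points, 26 intermediate promoters (0.60%) were higher and 18 (0.42%) lower, where all promoters had 0.191% higher and 0.265% lower. By at least 10 points, 142 (3.29%) were higher and 222 (5.14%) lower, against 1.09% and 5.04% of all promoters. After scaling, the 10-point counts became 205 higher and 149 lower, and the median difference changed sign to 0.21 points, so the direction over the set depends on whether the lower overall level of pESC is counted. The excess of higher promoters at 25 points also turned with the choice of promoters: chosen by the mean of the 3 libraries outside this pair, an alternative added after seeing the data, 17 were higher and 19 lower, and chosen by the mean of this pair 25 were higher and 11 lower.

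The promoter of ENSMUSG00000026888 showed the largest difference in the set. It stood at 6.25% in pESC-PGCLC, 0.709% in ESC-PGCLC, 3.17% in PGC, 83.3% in pESC and 2.21% in female ESC, so pESC were 81.1 points above female ESC and stood alone among the 5 libraries. The promoter of ENSMUSG00000031889 had 24.7% in pESC-PGCLC, 21.8% in ESC-PGCLC, 25.7% in PGC, 44.7% in pESC and 0.909% in female ESC, a difference of 43.8 points between pESC and female ESC with the germ cell libraries between them.

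Lower in pESC was the promoter of ENSMUSG00000032606, with 17.0% in pESC-PGCLC, 19.5% in ESC-PGCLC, 15.6% in PGC, 23.4% in pESC and 68.6% in female ESC, a difference of −45.2 points. Here female ESC stood alone. The promoter of ENSMUSG00000104237 had 25% in pESC-PGCLC, 21.2% in ESC-PGCLC, 37.2% in PGC, 10% in pESC and 54.2% in female ESC, a difference of −44.2 points, with the 5 levels spread over the whole range.

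Between the germ cell-like libraries the line difference was smaller. The median difference of pESC-PGCLC minus ESC-PGCLC was −0.33 points (quartiles −2.01 and 1.04), and the mean level was 96.2% of that in ESC-PGCLC. pESC-PGCLC were higher at 43.2% of the promoters, and at 55.0% after scaling. By 25 points, 8 intermediate promoters were higher and 5 lower, where 0.123% and 0.113% of all promoters were. Chosen by the mean of this pair, 19 promoters were higher and 19 lower, with no excess of either. By 10 points, 40 (0.93%) were higher and 81 (1.88%) lower, against 0.554% and 2.32% of all promoters. Scaling turned these 10-point counts to 57 higher and 63 lower and the median to 0.24 points.

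Lower levels after induction outnumbered higher ones at intermediate promoters in both lines. ESC-PGCLC had 88.2% of the mean of female ESC, with a median difference of −1.45 points (quartiles −4.43 and 0.75), and were higher at 32.3% of the promoters and lower at 67.5%. After scaling they were higher at 47.0%. By 25 points, 14 were higher and 21 lower, where 0.103% of all promoters were higher and 0.378% lower. By 10 points, 107 (2.48%) were higher and 275 (6.37%) lower, against 0.804% and 6.62% of all promoters. With the libraries scaled to 1 mean the splits were 20 higher and 14 lower at 25 points, and 163 higher and 179 lower at 10 points. The 25-point split was 27 higher and 12 lower when promoters were chosen by the mean of this pair, and 9 higher and 25 lower when chosen by the other 3 libraries.

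pESC-PGCLC had 89.8% of the mean of pESC, with a median difference of −1.29 points (quartiles −3.63 and 0.82), and were higher at 32.9% of the promoters and lower at 66.9%. After scaling they were higher at 44.5%. By 25 points, 2 were higher and 9 lower, where 0.0392% and 0.132% of all promoters were. By 10 points, 60 (1.39%) were higher and 162 (3.75%) lower, against 0.584% and 3.45% of all promoters. Scaled to 1 mean, the splits were 5 higher and 9 lower at 25 points, and 98 higher and 117 lower at 10 points. Chosen by the mean of this pair, 6 promoters were higher and 9 lower by 25 points. The medians stayed below 0 after scaling in both inductions, at −0.22 points for ESC-PGCLC minus female ESC and −0.39 points for pESC-PGCLC minus pESC.

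PGC had the lowest mean of the 5 libraries. Against female ESC the mean level in PGC was 82.5%, the median difference −2.09 points (quartiles −5.86 and 0.77), and PGC were higher at 30.8% of the promoters and lower at 69.0%. The majority turned with scaling, after which PGC were higher at 53.7%. By 25 points, 17 were higher and 30 lower, where 0.142% of all promoters were higher and 1.19% lower. By 10 points, 114 (2.64%) were higher and 525 (12.2%) lower, against 0.746% and 17.8% of all promoters. This comparison changed most with scaling: the counts became 28 higher and 16 lower at 25 points and 273 higher and 221 lower at 10 points, and the median changed sign to 0.37 points. Chosen by the mean of this pair, 26 promoters were higher and 20 lower by 25 points, and chosen by the other 3 libraries 10 were higher and 37 lower.

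Against pESC, PGC had 87.3% of the mean, a median difference of −1.82 points (quartiles −4.28 and 0.57), and were higher at 29.4% of the promoters and lower at 70.4%. After scaling they were higher at 46.7%. By 25 points, 6 were higher and 9 lower, where 0.054% and 0.216% of all promoters were. By 10 points, 63 (1.46%) were higher and 197 (4.56%) lower, against 0.51% and 7.46% of all promoters. After scaling the splits were 11 higher and 8 lower at 25 points and 131 higher and 103 lower at 10 points, with a median of −0.25 points. Chosen by the mean of this pair, 11 promoters were higher and 13 lower by 25 points, and chosen by the other 3 libraries 3 were higher and 8 lower.

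The germ cell-like libraries were close to PGC at these promoters. ESC-PGCLC had 106.9% of the PGC mean and a median difference of 0.87 points (quartiles −0.84 and 2.68), and were higher at 64.4% of the promoters. The majority turned with scaling, after which ESC-PGCLC were higher at 44.0%. By 25 points, 5 were higher and 8 lower, where 0.162% and 0.0981% of all promoters were. Chosen by the mean of this pair, 14 promoters were higher and 15 lower, and chosen by the other 3 libraries 5 were higher and 4 lower. By 10 points, 89 (2.06%) were higher and 51 (1.18%) lower, against 5.43% and 0.49% of all promoters. After scaling, 37 were higher and 71 lower at 10 points and the median was −0.29 points.

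pESC-PGCLC were closest to PGC, with 102.8% of the PGC mean and a median difference of 0.49 points (quartiles −1.14 and 2.05). They were higher at 59.0% of the promoters, and at 47.1% after scaling. By 25 points, 0 were higher and 2 lower, where 0.0687% and 0.0294% of all promoters were. Chosen by the mean of this pair, 10 promoters were higher and 8 lower, and chosen by the other 3 libraries 0 were higher and 0 lower. By 10 points, 43 (1.00%) were higher and 51 (1.18%) lower, against 1.96% and 0.569% of all promoters. Scaling turned these into 28 higher and 53 lower, with a median of −0.14 points.

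High promoters moved further in percentage points, in the same directions, before scaling. At a mean of 30% or more, the median difference was −12.7 points for PGC minus female ESC, −7.49 for PGC minus pESC, −6.30 for ESC-PGCLC minus female ESC, −4.15 for pESC-PGCLC minus pESC and −5.20 for pESC minus female ESC. In percent of the second library's mean the inductions were not larger there. ESC-PGCLC had 88.6% of the female ESC mean, against 88.2% in the set, and pESC-PGCLC 91.6% of the pESC mean, against 89.8%. PGC had 77.5% of the female ESC mean, against 82.5%, and 85.4% of the pESC mean, against 87.3%. pESC had 90.8% of the female ESC mean, against 94.5%. PGC were higher than female ESC at 3.65% of the high promoters, and pESC-PGCLC higher than ESC-PGCLC at 24.3%. After scaling, PGC were higher than female ESC at 40.6% of the high promoters, and pESC-PGCLC higher than ESC-PGCLC at 46.3%.

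**Figure D3:**
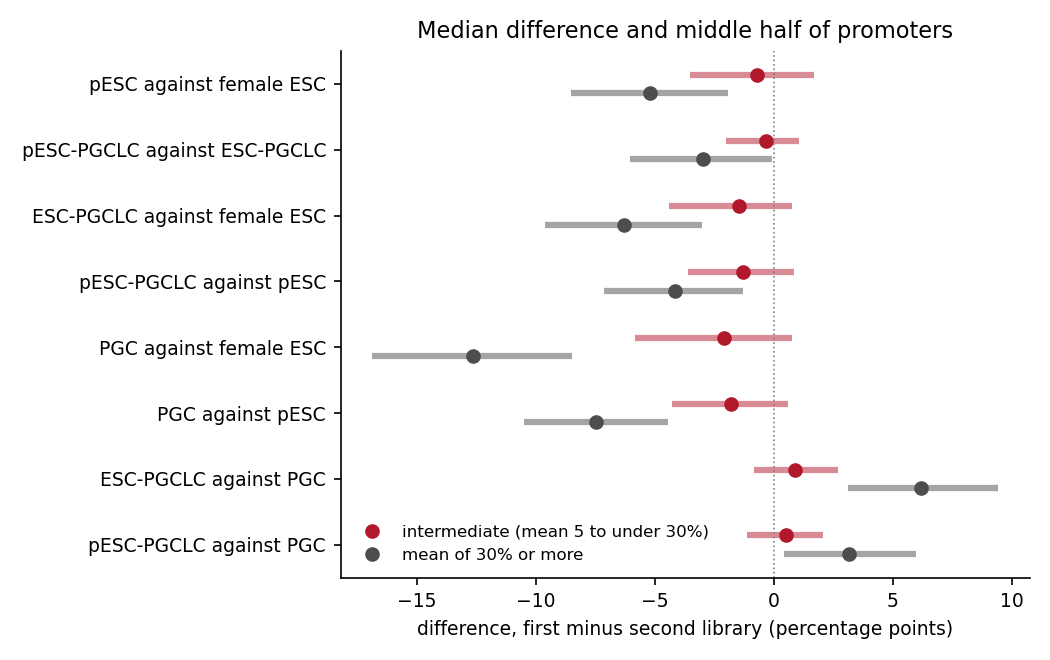
Median difference in percentage points (points) and interquartile range (bars) of each comparison, first library minus second, for the 4316 intermediate promoters and the 4630 promoters with a mean of 30% or more. The intermediate medians lie between −2.09 and 0.87 points, and the high promoters reach −12.7 points for PGC minus female ESC.

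The line difference had the same direction in germ cell-like cells and in stem cells at barely more promoters than not. pESC minus female ESC and pESC-PGCLC minus ESC-PGCLC share no library, and they had the same sign at 2203 of 4316 promoters (51.0%), with Pearson's r of 0.161 across promoters, which are not independent and share libraries' overall levels. Over all promoters the sign was the same at 54.4%, with r of 0.326. Of the promoters higher by 10 points, 15 were so in both comparisons, 10.6% of the 142 and 37.5% of the 40. Of those lower by 10 points, 27 were, 12.2% of the 222 and 33.3% of the 81. Over all promoters the shares were 15.8% and 31.0% for the higher ones and 17.4% and 37.9% for the lower ones. Opposite differences of 10 points were found at 14 promoters (0.324%), against 0.206% of all promoters.

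Of the 26 promoters higher by 25 points in pESC than in female ESC, 7 (26.9%) were among the 8 higher in pESC-PGCLC than in ESC-PGCLC (87.5%), while 0 promoters were lower by 25 points in both. Over all promoters 17 were higher in both (43.6% of 39 and 68% of 25) and 1 was lower in both (1.85% of 54 and 4.35% of 23), so that asymmetry is shared by all promoters. For the 2 inductions, which also share no library, the sign was the same at 2706 promoters (62.7%), with r of 0.199 across promoters. By 10 points, 13 promoters were higher in both inductions (12.1% of 107 and 21.7% of 60) and 38 were lower in both (13.8% of 275 and 23.5% of 162). Opposite ways were taken by 16 (0.371%), against 0.221% of all promoters. Over all promoters the sign was the same at 61.5%, with r of 0.380, and the shared promoters were 11.6% and 16.0% of the higher ones and 18.7% and 35.8% of the lower ones.

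The 7 promoters higher by 25 points in both parthenogenetic libraries than in both libraries of the female ESC line are set apart by that choice. Their medians were 35.7% in pESC-PGCLC, 2.94% in ESC-PGCLC, 33.1% in PGC, 40.2% in pESC and 3.25% in female ESC. The lowest and highest were 27.7% and 49.1% in pESC-PGCLC, 0% and 10.2% in ESC-PGCLC, 23.1% and 40.6% in PGC, 31.5% and 45.4% in pESC, and 0% and 6.69% in female ESC. The separation of the lines restates how they were chosen, while PGC, which entered only through the mean that chose the set, stood nearer to the parthenogenetic libraries. Such promoters made up 0.162% of the set and 0.0687% of all promoters.

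The promoter with a place among them shares its 5 levels with the CpG island at 4747208 to 4748412 on chromosome 6 (mm10). The island overlaps Peg10, an imprinted gene derived from a retrotransposon and expressed from the paternal chromosome, and lies within 1000 bp of an end of Sgce, which encodes epsilon-sarcoglycan and is also paternally expressed. The promoter had 34.3% in pESC-PGCLC, 3.22% in ESC-PGCLC, 33.1% in PGC, 39.1% in pESC and 3.25% in female ESC. The other 6 are known here by gene ID alone. One of them held 40.2% in pESC-PGCLC, 1.90% in ESC-PGCLC, 33.3% in PGC, 40.2% in pESC and 1.66% in female ESC, and its 5′ UTR held almost the same values, with 40.9% in pESC-PGCLC, 1.36% in ESC-PGCLC, 34.0% in PGC, 40.1% in pESC and 1.31% in female ESC. Another held 48.9% in pESC-PGCLC, 7.83% in ESC-PGCLC, 39.2% in PGC, 45.4% in pESC and 6.66% in female ESC, and the introns of the same gene held 55.3% in pESC-PGCLC, 16.4% in ESC-PGCLC, 53.9% in PGC, 64.2% in pESC and 14.9% in female ESC.

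With the bar at 10 points, 12 promoters (0.278%) were higher in both parthenogenetic libraries and 11 (0.255%) lower, against 0.142% and 0.216% of all promoters. PGC lay above the midpoint of the lines at all 12 higher promoters, and under it at 10 of the 11 lower ones. The 2 lower promoters with the widest gaps, 24.2 and 23.9 points, were alike: 13.3% and 11.8% in pESC-PGCLC, 37.5% and 35.7% in ESC-PGCLC, 6.03% and 5.76% in PGC, 11.3% and 10.04% in pESC, and 39.0% and 38.8% in female ESC. At these promoters PGC were the lowest library.

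**Figure D4:**
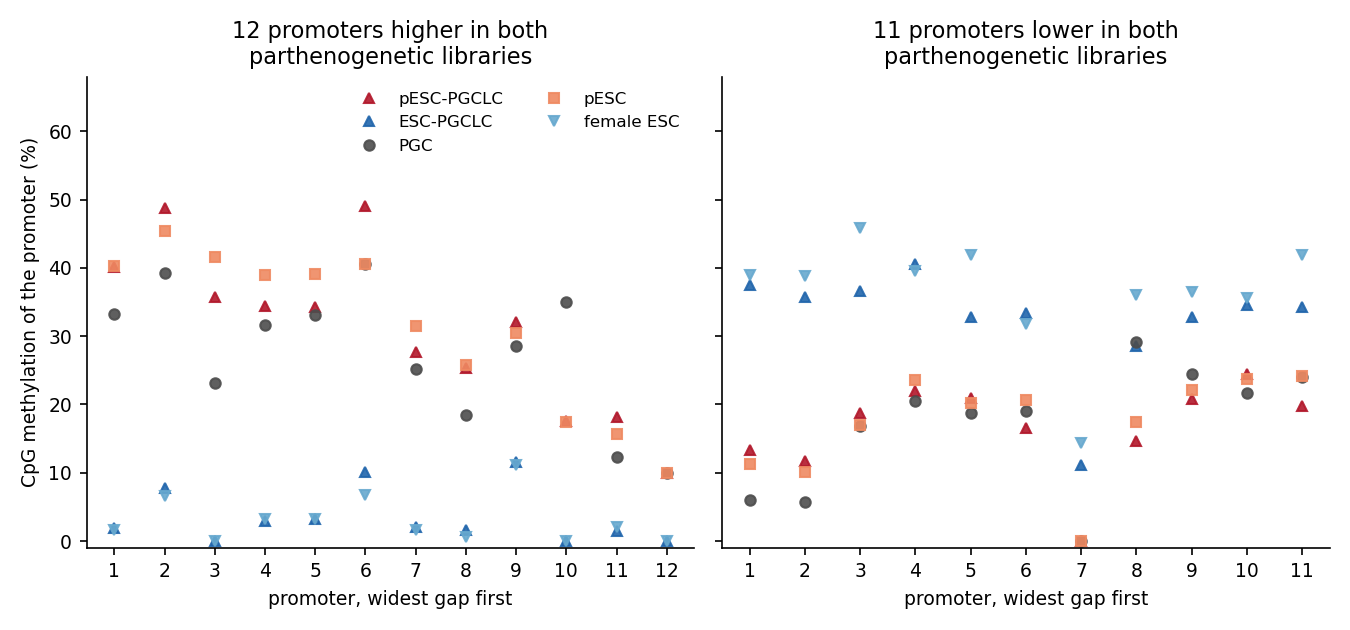
CpG methylation in percent of each promoter at which both parthenogenetic libraries differ by at least 10 points, in the same direction, from both libraries of the female ESC line. At the 12 higher promoters PGC lie above the midpoint of the lines, a place that the mean that chose the set limits. At the first 7 of these promoters, apart by 25 points, both libraries of the female ESC line are at 10.2% or less.

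Female ESC stood apart from the other 4 libraries at more promoters than any other single library did. They were above the other 4 libraries by at least 10 points at 111 promoters and under them at 34. pESC were above the other 4 at 36 and under at 5, PGC above at 8 and under at 6, pESC-PGCLC above at 5 and under at 8, and ESC-PGCLC above at 5 and under at 4. The median distance of a library from the median of the other 4 was 2.77 points for female ESC, 2.08 for pESC, 2.10 for PGC, 1.56 for pESC-PGCLC and 1.34 for ESC-PGCLC. These counts and distances were not made over all promoters, so they are not read as particular to the set. The part of depth in them could not be measured from levels alone and was not tested.

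Located promoters give examples of such patterns. They were chosen after values were seen, among those with wide ranges, to show different orders of the libraries. A shore at Cpxm2, which encodes a carboxypeptidase-like secreted protein, at 132152426 to 132154426 on chromosome 7, matched a promoter with 13.95% in pESC-PGCLC, 8.53% in ESC-PGCLC, 12.7% in PGC, 27.0% in pESC and 39.3% in female ESC. A shore at Cd109, which encodes a surface protein that binds TGF-β, at 78613627 to 78615627 on chromosome 9, matched one with 12.1% in pESC-PGCLC, 18.3% in ESC-PGCLC, 13.3% in PGC, 22.1% in pESC and 34.2% in female ESC. Both had the 3 germ cell libraries under both stem cell libraries.

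Other located promoters followed other orders. A shore at Cnpy3, which encodes a chaperone of Toll-like receptors, at 46752337 to 46754338 on chromosome 17, matched a promoter with 8.33% in pESC-PGCLC, 25.8% in ESC-PGCLC, 18.7% in PGC, 5.88% in pESC and 4.00% in female ESC, highest in ESC-PGCLC. Its CHG and CHH levels did not all equal those of the shore. A shore overlapping Fgf15, which encodes a hormone-like growth factor, and the gene model Gm26793, at 144897267 to 144899268 on chromosome 7, matched one with 33.3% in pESC-PGCLC, 29.3% in ESC-PGCLC, 8.82% in PGC, 25% in pESC and 29.2% in female ESC, lowest in PGC, with CHG levels that did not all equal the shore's. The island at the pseudogene Ctdsp2-ps, at 130412259 to 130412541 on chromosome 10, matched one with 1.82% in pESC-PGCLC, 5.00% in ESC-PGCLC, 21.4% in PGC, 2.00% in pESC and 9.52% in female ESC, highest in PGC, with CHH levels that did not all equal the island's.

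By class, the 26 promoters located at islands averaged 12.8% in pESC-PGCLC, 13.1% in ESC-PGCLC, 14.6% in PGC, 14.2% in pESC and 16.1% in female ESC. The 158 located at shores averaged 14.1% in pESC-PGCLC, 15.0% in ESC-PGCLC, 14.2% in PGC, 15.2% in pESC and 17.95% in female ESC. The 10 on the X chromosome averaged 12.7% in pESC-PGCLC, 16.0% in ESC-PGCLC, 15.5% in PGC, 13.9% in pESC and 15.3% in female ESC. Female ESC had the highest mean in the first 2 classes but not on the X chromosome, where 10 promoters are few. PGC had the lowest mean in none of these classes, unlike over the set. The located promoters also departed from the set between the stem cell lines. Of the 184, pESC were higher than female ESC at 39 and lower at 145, with a median difference of −2.64 points, against −0.69 over the set.

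The rule did not use other regions of the same genes. Their mean levels rose from the 5′ UTR to exons, introns and the 3′ UTR, each listed for a different set of genes. The order was the same over all promoters, where female ESC averaged 4.46%, 18.8%, 24.8% and 42.6%. The 5′ UTR, listed for 2377 of the 4316 gene IDs (55.1%), averaged 5.37% in pESC-PGCLC, 5.60% in ESC-PGCLC, 4.98% in PGC, 5.63% in pESC and 6.27% in female ESC, and lay under the promoter's level at 85.1% to 86.6% of the genes. Exons, listed for 3525, averaged 19.8% in pESC-PGCLC, 20.9% in ESC-PGCLC, 18.7% in PGC, 22.1% in pESC and 23.6% in female ESC. Introns, listed for 3255, averaged 24.2% in pESC-PGCLC, 25.5% in ESC-PGCLC, 22.7% in PGC, 27.1% in pESC and 28.6% in female ESC. The 3′ UTR, listed for 1041, was highest, with 36.6% in pESC-PGCLC, 38.0% in ESC-PGCLC, 34.0% in PGC, 38.8% in pESC and 42.9% in female ESC. In each of these regions PGC had the lowest mean and female ESC the highest, as at the promoters.

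The 5′ UTR averaged between 2.10% and 2.33% beside low promoters and between 16.6% and 22.5% beside high ones over the 5 libraries, so that beside intermediate promoters lay between them. Pearson's r across genes in a library between the promoter and the 5′ UTR was 0.180 to 0.272 in the set and 0.482 to 0.518 over all promoters, and with introns 0.127 to 0.171 in the set and 0.374 to 0.393 over all promoters. The set was chosen for a narrow range of promoter levels, so its r and that over all promoters are not like for like. Genes are not independent, and neighbouring regions of a gene share a library.

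**Figure D5:**
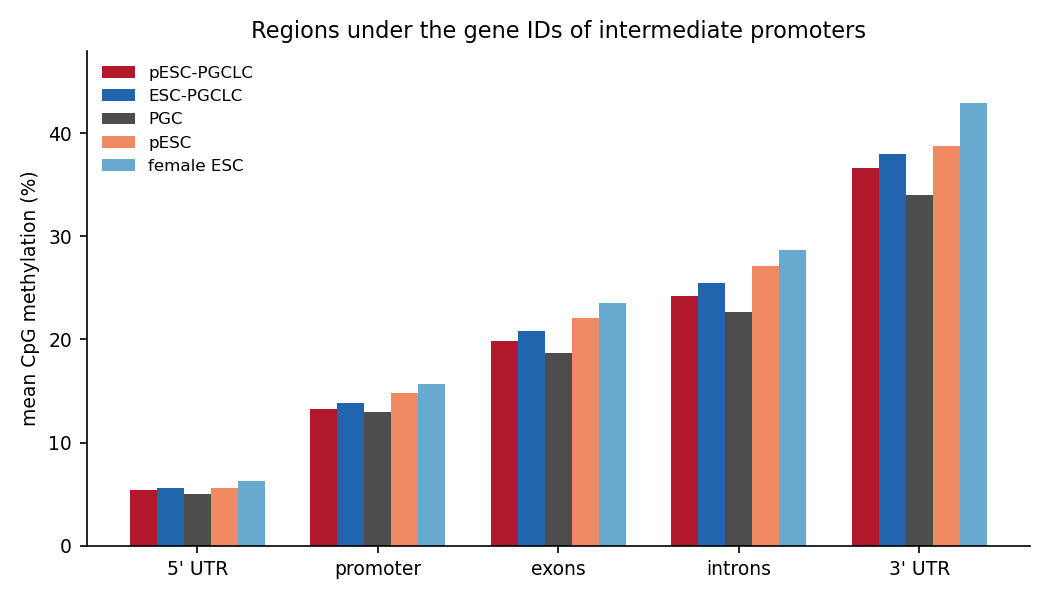
Mean CpG methylation in percent of the regions listed under the gene IDs of intermediate promoters, for each of the 5 libraries, with the promoter as the second group of bars. The means run from 4.98% to 6.27% in the 5′ UTR to 34.0% to 42.9% in the 3′ UTR, with PGC lowest and female ESC highest in every region.

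In every comparison, the median difference of exons and of introns at promoters lower by 10 points lay under that of the whole set, by unlike amounts. At the 525 promoters lower by 10 points in PGC than in female ESC, the median difference of exons was −9.07 points (386 genes) and of introns −9.32 points (345 genes), against −2.62 and −5.40 points for all intermediate promoters with these regions. At the 222 promoters lower in pESC than in female ESC it was −6.10 points in exons (147 genes) and −4.72 in introns (132 genes), against −0.63 and −1.11. The 3′ UTR did not follow, at −9.06 points (85 genes) against −9.79 over the set for PGC minus female ESC, and −3.66 (20 genes) against −4.06 for pESC minus female ESC. At the 51 promoters lower by 10 points in ESC-PGCLC than in PGC, exons and introns were not lower in ESC-PGCLC. Their medians were 0.05 points in exons (27 genes) and 1.94 in introns (20 genes), somewhat under the 1.12 and 2.28 over the set. In the 5′ UTR of these 51 the median was −14.3 points (9 genes), against 0.25 over the set. At the 142 promoters higher in pESC than in female ESC, the exon median was 0.37 points (115 genes) and the intron median −0.02 points (105 genes). In the 5′ UTR the median was −0.83 points at the 525 promoters (207 genes), against −0.18 over the set, and −0.63 at the 222 (66 genes), against −0.12. These regions can overlap the promoter of the same gene, and how far they do was not tested.

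Methylation outside CpG was low at these promoters. The mean CHG level, over the 4285 promoters listed in that context, was 0.888% in pESC-PGCLC, 0.909% in ESC-PGCLC, 0.812% in PGC, 0.753% in pESC and 0.771% in female ESC. The mean CHH level, over 4262, was 0.719% in pESC-PGCLC, 0.751% in ESC-PGCLC, 0.687% in PGC, 0.593% in pESC and 0.607% in female ESC. Both were higher in the germ cell libraries than in the stem cell libraries, the reverse of CpG. Non-CpG cytosines that bisulfite failed to convert count as methylated, so the part of conversion in these values was not tested.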

How the data were processed

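The values came from the deposited tables of 5 libraries, 1 for each group, with a methylation level for each region and cytosine context, which the authors deposited as a fraction from 0 to 1. Per the submitters' processing notes, the tools were Bismark 0.16.3 and Bowtie2 and the build mm10. What each tool did, any coverage filter and how promoters were drawn are not stated in the labels. Coordinates are as deposited, in mm10, and their counting base is not stated.

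Levels were multiplied to percent and compared as differences of 2 levels, called at 25 and at 10 percentage points, with no test. The calling step was run on simulated levels with known changes larger than the bar, at a fixed depth. As the depth of these data is unknown, that run does not tell how reliable the calls are here. Tables were handled with Python 3.11.15, pandas 2.3.3 and numpy 2.4.6. Each of the 20388 promoters had 1 entry. The members, the alternatives and the comparisons were chosen with earlier results of these data known.

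Named genes follow a rule: the largest differences in each comparison among members with no level of exactly 0 or 100%. The reference table pairs 0 rows with an Ensembl ID, so IDs are printed for at most 2 promoters higher and 2 lower in pESC than in female ESC. Planned gene lists and motif searches needed symbols and were not run. Promoters were located by 5 CpG levels, all above 0, equal to 8 decimals to those of exactly 1 island or shore. Genes overlap that region or have an end within 1000 bp. As a check, 157 other regions under located gene IDs were placed the same way: 48 fell on the same region, 109 on the same chromosome within 100 kb and 0 elsewhere.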

Additional observations from a re-analysis of the deposited data

Results flagged for a closer look

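Over the set, 14 promoters (0.324%) had line differences of at least 10 points in opposite directions in the 2 cell stages. Induction differences of that kind in the 2 lines were found at 16 (0.371%). Over all promoters the shares were 0.206% and 0.221%, and at a mean of 30% or more 0.605% and 0.626%, so such promoters are not particular to the set. The rule for named genes, which takes the largest differences of each comparison, holds 6 such promoters with 7 such contrasts, given here. Each rests on 1 library in each group, and none of these differences between groups was tested.

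For induction, ESC-PGCLC minus female ESC stands beside pESC-PGCLC minus pESC. At the promoter of ENSMUSG00000031889 the first was 20.9 points and the second −20.0 points, and at that of ENSMUSG00000104237 they were −33.0 and 15.0 points. A promoter with 10.5% in pESC-PGCLC, 41.4% in ESC-PGCLC, 10.99% in PGC, 32.6% in pESC and 23.4% in female ESC changed by 17.9 and −22.1 points. At another, the differences were 33.6 and −11.2 points, and female ESC stood at 1.18% against 28.4% to 39.6% in the other 4 libraries. 

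A further promoter appears under both contrasts, with 9.74% in pESC-PGCLC, 33.2% in ESC-PGCLC, 10.7% in PGC, 24.2% in pESC and 1.94% in female ESC. Its induction differences were 31.3 points in the female ESC line and −14.4 in the parthenogenetic line. Its line difference, the parthenogenetic line minus the female ESC line, was 22.2 points in stem cells and −23.5 in germ cell-like cells. At the remaining promoter, with 25.9% in pESC-PGCLC, 9.09% in ESC-PGCLC, 17.4% in PGC, 35% in pESC and 50.0% in female ESC, the line difference was −15.0 points in stem cells and 16.8 in germ cell-like cells.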

How the results depend on the processing

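No paired analysis was possible because each group has 1 library. No p-value or interval could be had, and depth is unknown, so counting error could not be separated from a difference. The alternative of 1 entry for each gene ID was not run, since each ID had 1. Selection by the 3 libraries not compared and counting each distinct set of levels once were chosen after seeing the data. Of 160 counts under alternatives, 84 were within 1.5 times the reported count and 76 were not. Of 64 medians, 44 kept their sign and stayed within 1.5 times, 15 moved further and 5 changed sign, while all 25 library means under the alternatives run for them stayed within 1.5 times. A lower or higher bar, or a narrower range of means, changes counts by construction, and for the other alternatives the cause was not tested. Below are the values that moved further or changed sign.

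At 10 points, the counts were 142 higher and 222 lower for pESC against female ESC, 40 higher and 81 lower for pESC-PGCLC against ESC-PGCLC, 107 higher and 275 lower for ESC-PGCLC against female ESC, 60 higher and 162 lower for pESC-PGCLC against pESC, 114 higher and 525 lower for PGC against female ESC, 63 higher and 197 lower for PGC against pESC, 89 higher and 51 lower for ESC-PGCLC against PGC, 43 higher and 51 lower for pESC-PGCLC against PGC. At 40 points, the counts were 5 higher and 3 lower for pESC against female ESC, 1 higher and 0 lower for pESC-PGCLC against ESC-PGCLC, 0 higher and 4 lower for ESC-PGCLC against female ESC, 0 higher and 3 lower for pESC-PGCLC against pESC, 0 higher and 5 lower for PGC against female ESC, 0 higher and 2 lower for PGC against pESC, 1 higher and 0 lower for ESC-PGCLC against PGC, 0 lower for pESC-PGCLC against PGC. With a mean of 5% to under 20%, the counts were 10 higher and 6 lower for pESC against female ESC, 1 higher and 1 lower for pESC-PGCLC against ESC-PGCLC, 3 higher and 7 lower for ESC-PGCLC against female ESC, 1 higher and 5 lower for pESC-PGCLC against pESC, 6 higher and 7 lower for PGC against female ESC, 5 lower for PGC against pESC, 0 higher and 3 lower for ESC-PGCLC against PGC. The medians were −0.28 points for pESC against female ESC, −0.15 points for pESC-PGCLC against ESC-PGCLC, −0.93 points for ESC-PGCLC against female ESC, −1.30 points for PGC against female ESC. With a mean of 10% to under 30%, the count was 0 lower for pESC-PGCLC against PGC. The medians were −1.85 points for pESC against female ESC, −0.77 points for pESC-PGCLC against ESC-PGCLC, −2.91 points for ESC-PGCLC against female ESC, −2.11 points for pESC-PGCLC against pESC, −4.35 points for PGC against female ESC, −2.82 points for PGC against pESC, 1.53 points for ESC-PGCLC against PGC, 0.82 points for pESC-PGCLC against PGC. With the libraries scaled to 1 mean, the counts were 5 higher for pESC-PGCLC against pESC, 28 higher and 16 lower for PGC against female ESC, 11 higher for PGC against pESC. The medians were 0.21 points for pESC against female ESC, 0.24 points for pESC-PGCLC against ESC-PGCLC, −0.22 points for ESC-PGCLC against female ESC, −0.39 points for pESC-PGCLC against pESC, 0.37 points for PGC against female ESC, −0.25 points for PGC against pESC, −0.29 points for ESC-PGCLC against PGC, −0.14 points for pESC-PGCLC against PGC, and those of pESC against female ESC, pESC-PGCLC against ESC-PGCLC, PGC against female ESC, ESC-PGCLC against PGC, pESC-PGCLC against PGC changed sign. With promoters chosen by the mean of the compared pair, the counts were 11 lower for pESC against female ESC, 19 higher and 19 lower for pESC-PGCLC against ESC-PGCLC, 27 higher and 12 lower for ESC-PGCLC against female ESC, 6 higher for pESC-PGCLC against pESC, 26 higher for PGC against female ESC, 11 higher for PGC against pESC, 14 higher and 15 lower for ESC-PGCLC against PGC, 10 higher and 8 lower for pESC-PGCLC against PGC. With promoters chosen by the 3 libraries not compared, the counts were 17 higher for pESC against female ESC, 9 higher for ESC-PGCLC against female ESC, 10 higher for PGC against female ESC, 3 higher for PGC against pESC, 4 lower for ESC-PGCLC against PGC, 0 lower for pESC-PGCLC against PGC. Without promoters at exactly 0 or 100%, the counts were 2 lower for pESC-PGCLC against ESC-PGCLC, 1 higher for pESC-PGCLC against pESC, 11 higher for PGC against female ESC, 3 higher for PGC against pESC, 3 higher for ESC-PGCLC against PGC, 1 lower for pESC-PGCLC against PGC. With the CHH level subtracted, the counts were 3 lower for pESC-PGCLC against ESC-PGCLC, 0 higher for pESC-PGCLC against pESC, 1 lower for pESC-PGCLC against PGC.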

Other observations

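Of the 22163 promoters listed in any library, 1775 were missing from at least 1, and 413 of these (23.3%) had a mean of 5% to under 30% over the libraries that listed them. Female ESC listed 71 of the 413, against 285 in pESC-PGCLC, 300 in ESC-PGCLC, 288 in PGC and 209 in pESC. Their mean level was 15.0% in pESC-PGCLC, 15.8% in ESC-PGCLC, 15.5% in PGC, 17.3% in pESC and 10.9% in female ESC. A level of exactly 0 was given to 29 in pESC-PGCLC, 28 in ESC-PGCLC, 21 in PGC, 15 in pESC and 16 in female ESC.

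Of the 4316 intermediate promoters, 68 shared all 5 levels with another member, leaving 4282 distinct sets of levels, and 62 stood at exactly 0 in some library.

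Some promoters stood apart in 1 library by over 25 points. PGC alone were high at a promoter with 2.40% in pESC-PGCLC, 4.04% in ESC-PGCLC, 32.4% in PGC, 2.48% in pESC and 3.81% in female ESC. pESC alone were high at one with 10.9% in pESC-PGCLC, 14.9% in ESC-PGCLC, 11.5% in PGC, 49.5% in pESC and 10.8% in female ESC. Female ESC alone were high at one with 0.730% in pESC-PGCLC, 2.20% in ESC-PGCLC, 3.15% in PGC, 6.81% in pESC and 42.1% in female ESC. Female ESC alone were low at one with 36.4% in pESC-PGCLC, 33.7% in ESC-PGCLC, 31.0% in PGC, 42.8% in pESC and 3.57% in female ESC.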
